A study of Mus musculus with 5 samples.

Results

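REX1-only promoter sites are REX1 ChIP-seq peaks that lie at a transcription start site (TSS) and have no partner among the RNF12 peaks. A REX1 peak on chromosomes 1 to 19 or X was taken when it shared no base with any peak of RNF12 WT or of the catalytic mutant RNF12 H569A,C572A, and when its summit lay within 1 kb of a TSS of any GENCODE transcript. The members were thus selected on measured values, namely the presence of a REX1 peak call and the absence of both RNF12 peak calls, and neither property is a finding. The rule took 9123 of 95744 REX1 peaks, and 9123 of the 34429 REX1 peaks at promoters, which is 26.5%. This share depends on what counts as an overlap: it was 56.5% when an overlap had to cover 50% of both peaks and 9.99% when any RNF12 peak within 1 kb counted. A further 19023 promoter peaks overlapped peaks of both RNF12 lists and are called promoter peaks in all 3 lists. REX1 peaks without an RNF12 partner and more than 1 kb from a TSS numbered 39116 and are called REX1-only distal peaks.

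The 3 peak lists come from 1 library each, all from female mouse embryonic stem cells (mESCs) of the hybrid strain 129/Sv-Cast/Ei, with the tagged protein precipitated through V5. The REX1 library came from WT cells with FLAG-V5-REX1, and the RNF12 libraries from Rlim+/- cells that carried FLAG-V5-RNF12, either WT or with the H569A,C572A change, expressed from a pCAG plasmid in stable lines. For the RNF12 libraries the cells were given 15 μM of the proteasome inhibitor MG132 for 3 h and cross-linked with 2 mM disuccinimidyl glutarate and 1% formaldehyde. The labels name V5-tagged REX1 for the REX1 library, while the study describes REX1 occupancy as taken from earlier work, so treatment and cross-linking may have differed between REX1 and RNF12, and such a difference and the protein cannot be told apart. There are no replicates, the 2 input libraries were not analysed here, and the lists give no number of reads, so depth is unknown. No test between conditions was possible. Shares of peaks carry 95% Wilson intervals for counting error alone. The labelled cell type could not be checked against markers, since the lists hold no expression.

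REX1, also named ZFP42, is a zinc finger protein of the YY1 family and a marker of undifferentiated embryonic stem cells. RNF12, also named RLIM, is a RING-type E3 ubiquitin ligase encoded on the X chromosome that marks REX1 for degradation by the proteasome, a step that matters for X-chromosome inactivation. Many mammalian promoters lie in CpG islands, stretches in which the dinucleotide CG has not been depleted by methylation, and other promoters lie in CpG-poor sequence. The zinc fingers of YY1, and those of REX1 that resemble them, recognise sequences around ATGGC.

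The strongest members include sites with and without the string ATGGCNGC. Below are 30 bases (GRCm38, the build named mm10) from the 10 members with the highest REX1 fold enrichment whose nearest TSS belongs to a protein-coding gene. Capitals mark the string ATGGCNGC, here called the REX1/YY1 core. Where no such string lay within 50 bp of the summit, the 30 bases around the summit are given in lower case. All are on the plus strand.
Rtn1 (chr12:72235789-72235818): ggctgaaaagcaagcgaggctggagggcgg
Hap1 (chr11:100356949-100356978): ggctactttggaagctggctctcagtcctg
Cacng5 (chr11:107911607-107911636): ctcctttagaaATGGCCGCccaccccaccc
Atxn7l1 (chr12:33303204-33303233): taccagccagccattgctggatgacgcgct
Ptpa (chr2:30441989-30442018): tcctgctcaatATGGCTGCtctgactcaca
Atf7ip (chr6:136532961-136532990): gctgtctcaaaATGGCTGCtaacccaatcc
Cbx7 (chr15:79970645-79970674): agtcagaaaagATGGCGGCcgaggcggcgc
Pim1 (chr17:29492857-29492886): atgccgggctgggctgcgttttttgtattt
Rpgr (chrX:10216274-10216303): gcgagagaataATGGCTGCcgccgcctcca
Ube2s (chr7:4812962-4812991): atggaagggcggaagtgtggacataatttg

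The core string was present at 5 of these 10 sites and absent at 5. Among the latter, the Atxn7l1 sequence holds the shorter ATGGC on the other strand. At Ptpa and Atf7ip it read in the direction of transcription, with its A 147 bp and 45 bp downstream of the nearest TSS, respectively. At Cacng5, Cbx7 and Rpgr it read against it. The Atf7ip and Rpgr sequences lie in annotated untranslated regions. The word was ATGGCTGC at 3 of these 5 sites.

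Rtn1, which encodes a reticulon of the endoplasmic reticulum, had the highest fold enrichment, 24.6 at a summit 65 bp upstream of its TSS. Hap1, encoding huntingtin-associated protein, followed with 24.5 at 836 bp upstream. Cacng5, a regulatory subunit of calcium channels and AMPA receptors, had 24 at 260 bp upstream, in an intron of an annotated transcript. Atxn7l1 had 23.5 at 704 bp downstream of a TSS. Ptpa, an activator of protein phosphatase 2A, had 22.5 and Atf7ip, a partner of the histone methyltransferase SETDB1, had 20.4. The remaining sites belonged to the Polycomb gene Cbx7 with 20, the kinase gene Pim1 with 19.4, the X-linked Rpgr with 19.4 and Ube2s, a ubiquitin-conjugating enzyme of the anaphase-promoting complex, with 17.4. Among all members the median was 4.27, so these sites stand at the upper end of a list of mostly modest peaks.

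No RNF12 summit lay within 1 kb of the nearest TSS for 6 of these 10 sites, namely those at Rtn1, Cacng5, Atxn7l1, Ptpa, Atf7ip and Cbx7. The Rtn1 site still lay 911 bp from an RNF12 WT peak and 511 bp from an RNF12 H569A,C572A peak, and a REX1 peak shared with RNF12 stood at the same TSS. At Atf7ip the nearest RNF12 peaks were 13615 bp (WT) and 13652 bp (H569A,C572A) away, and at Cbx7 they were 7620 bp and 6679 bp away. At the other extreme, the Rpgr site was 106 bp from an RNF12 WT peak and 47 bp from an RNF12 H569A,C572A peak, and the Ube2s site 47 bp and 71 bp. Counting every annotated TSS of these genes, each of the 10 genes had an RNF12 summit within 1 kb of at least 1 TSS. An RNF12 summit at a TSS was also found for 90.6% of all protein-coding genes with a REX1-only site.

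Members were weaker and narrower than promoter peaks in all 3 lists, which is given as a description. The rule read the start and end of each peak, and a wider peak has more chances to overlap an RNF12 peak. The median fold enrichment was 4.27 (interquartile range 3.66 to 5.05) against 4.87 (3.88 to 6.42), the median −log10 q was 4.63 against 7.54, and the median width was 142 bp against 252 bp. The REX1-only distal peaks were close to the members, with medians of 4.47, 4.74 and 138 bp. So were the promoter peaks shared with RNF12 WT alone (4.32, 5.06 and 169 bp) and those shared with RNF12 H569A,C572A alone (4.2, 5.06 and 168 bp). The share of REX1 promoter peaks that were REX1-only depended on strength: it was 41.1% (interval 39.5% to 42.8%) in the lowest decile of −log10 q and 9.29% (8.37% to 10.3%) in the highest. The part of peak strength in the membership was not tested.

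Members also lay farther from the TSS than shared peaks, within the 1 kb that the rule allowed. The median distance was 364 bp for members and 111 bp for promoter peaks in all 3 lists. Within 100 bp of the TSS lay 19.6% (18.8% to 20.4%) of members and 47.4% (46.7% to 48.1%) of the shared peaks, and beyond 500 bp lay 36.7% (35.7% to 37.7%) and 11% (10.6% to 11.5%). The summit was downstream of the TSS at 54% (52.9% to 55%) of members and 62.4% (61.7% to 63%) of shared peaks. There were 290 members at 951 to 1000 bp, with a median fold enrichment of 4.26, and 255 REX1-only peaks just outside, at 1001 to 1050 bp, with 4.29. At the other limit of the rule, 745 members lay less than 50 bp from an RNF12 peak (median fold enrichment 4), and 1171 promoter peaks were left out for an overlap of 1 to 49 bp (3.97).

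**Figure D1:**
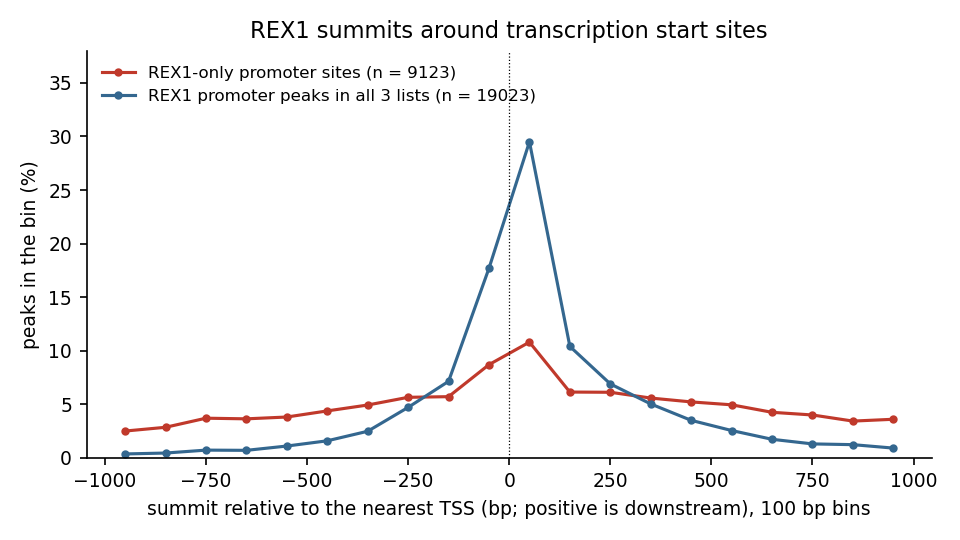
Position of REX1 summits relative to the nearest TSS in bins of 100 bp (x axis, bp, positive values downstream) and the percentage of peaks in each bin (y axis), for 9123 REX1-only promoter sites and 19023 REX1 promoter peaks in all 3 lists. The shared peaks pile up at the TSS, while the members are spread over the whole 1 kb on either side.

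The annotation under the members also differed from that under promoter peaks in all 3 lists. The nearest TSS belonged to a protein-coding gene for 74.4% (73.5% to 75.3%) of members and 88.9% (88.5% to 89.4%) of promoter peaks in all 3 lists, and to a long non-coding RNA gene for 14.3% (13.6% to 15%) and 6.34% (6.01% to 6.7%). Pseudogenes accounted for 5.74% (5.28% to 6.24%) against 2.31% (2.1% to 2.53%). Member summits fell most often in introns of annotated genes on either strand (42.8%, 41.8% to 43.8%), whereas this held for 22.5% (21.9% to 23.1%) of shared peaks. Untranslated regions held 9.25% (8.67% to 9.86%) of member summits and 31.7% (31% to 32.4%) of shared summits. The TSS itself was within 100 bp of the 5′ end of its gene for 52.5% (51.5% to 53.6%) of members against 63% (62.3% to 63.7%). Promoter peaks that REX1 shared with RNF12 WT alone lay nearer to the members, with 12.1% (11% to 13.4%) at long non-coding RNA genes, 37% (35.2% to 38.8%) in introns and 52% (50.1% to 53.9%) at a TSS near the 5′ end of its gene. TSSs on both strands within 1 kb, the arrangement of divergent promoters, were found at 9.51% (8.93% to 10.1%) of members and 21.9% (21.3% to 22.4%) of shared peaks.

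Members and promoter peaks in all 3 lists also differed in CpG content, a property of the genome sequence that the rule did not use. In the 501 bases around the summit the median ratio of observed to expected CG was 0.335 (interquartile range 0.219 to 0.486) for members, 0.792 (0.658 to 0.901) for promoter peaks in all 3 lists and 0.23 (0.15 to 0.33) for REX1-only distal peaks. The median GC content was 53.3%, 64.7% and 50.7%, respectively. A window was called CpG-island-like when its GC content was at least 50% and the ratio at least 0.6. This held for 945 of 9123 members (10.4%, 9.75% to 11%), 15709 of 19023 promoter peaks in all 3 lists (82.6%, 82% to 83.1%) and 1.81% (1.68% to 1.95%) of the distal peaks. The 2687 promoter peaks that REX1 shared with RNF12 WT alone had a median ratio of 0.43 and were CpG-island-like in 21% (19.5% to 22.6%), and the 3596 shared with RNF12 H569A,C572A alone had 0.709 and 67.2% (65.7% to 68.7%).

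**Figure D2:**
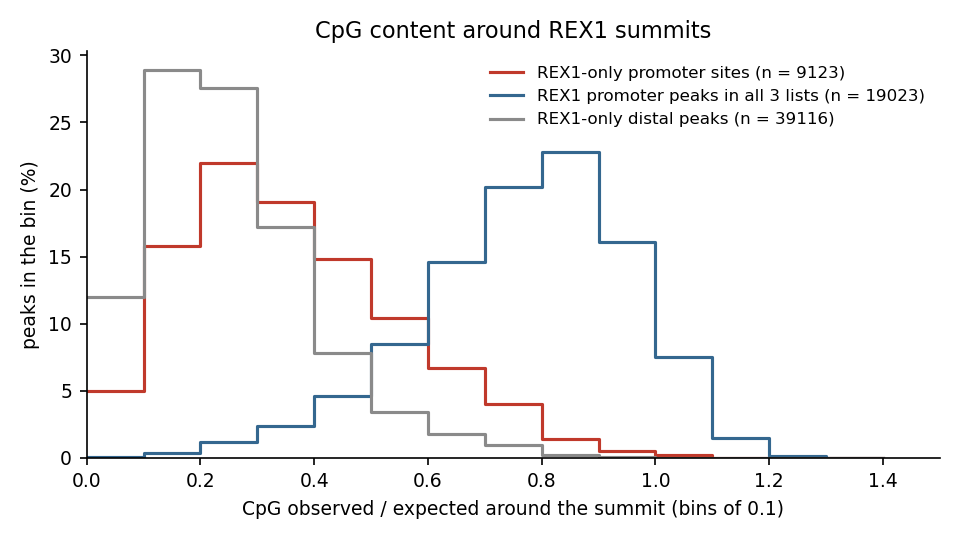
Ratio of observed to expected CG in the 501 bases around REX1 summits in bins of 0.1 (x axis; the last bin holds all higher values) and the percentage of peaks in each bin (y axis), for REX1-only promoter sites, REX1 promoter peaks in all 3 lists and REX1-only distal peaks. Medians are 0.335, 0.792 and 0.23.

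The gap in CpG content was present at each distance from the TSS. Among members within 100 bp of the TSS 13% (11.5% to 14.6%) were CpG-island-like, against 87.9% (87.2% to 88.5%) of shared peaks at that distance, and from 301 to 1000 bp the shares were 7.83% (7.13% to 8.6%) and 72.1% (70.7% to 73.4%). It was also present in every decile of strength. In the lowest decile of −log10 q the share was 10.5% (9.03% to 12.2%) in members and 77.1% (74.7% to 79.4%) in shared peaks, and in the highest decile 6.25% (4.08% to 9.46%) and 88.1% (86.9% to 89.3%). With every list held to its 20000 strongest peaks, however, 46.9% (45.2% to 48.6%) of the members were CpG-island-like against 96.1% of the promoter peaks in all 3 lists, and with an RNF12 peak within 1 kb counted as shared 2.73% of the members were, both alternatives chosen after the data were seen.

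Members were divided by what else stood at their TSS. An RNF12 summit of either list lay within 1 kb of the same TSS, without overlap, at 5475 of 9123 members (60%, 59% to 61%), and none did at 3648 (40%, 39% to 41%). With every list held to its 20000 strongest peaks the first share was 26.9%. An RNF12 summit lay within 1 kb of 50.9% (50.7% to 51.2%) of all 130592 distinct annotated TSSs, and of 91.5% (91.2% to 91.7%) of the 58553 that had any REX1 summit within 1 kb. These are shares of TSSs, while 60% is a share of peaks that the rule took for lacking an RNF12 overlap. The values are thus not like measures. At the TSS of members RNF12 WT was present in 53.4% (52.4% to 54.5%), RNF12 H569A,C572A in 49.8% (48.8% to 50.8%) and both in 43.2% (42.2% to 44.2%). A second REX1 peak that did overlap RNF12 stood at the same TSS in 42.9% (41.9% to 43.9%). The median gap between a member and the nearest RNF12 peak was 505 bp (interquartile range 160 to 2810 bp), and 15.9% (15.2% to 16.7%) of members were within 100 bp of one. An RNF12 peak lay within 1 kb of 62.3% (61.3% to 63.3%) of members and of 26.2% (25.7% to 26.6%) of REX1-only distal peaks.

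Where both proteins had a summit at 1 TSS, RNF12 was usually the nearer. Its summit was closer to the TSS than that of the member at 3673 of 5475 sites (67.1%, 65.8% to 68.3%), with median distances of 147 bp for RNF12 and 401 bp for REX1. Since 2 lists were searched for RNF12 and the nearest summit was taken, and since a member cannot overlap it, this order is a description of the sites and not a comparison of the proteins. The TSS of these members was CpG-island-like in 44.1% (42.8% to 45.4%), and the member summit itself in 15.4% (14.5% to 16.4%).

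Members at a TSS without RNF12 were mostly at CpG-poor promoters. Their TSS was CpG-island-like in 95 of 3648 cases (2.6%, 2.14% to 3.17%), compared with 31.8% (31.6% to 32.1%) of all 130592 annotated TSSs. The nearest TSS was that of a protein-coding gene at 62.3% (60.8% to 63.9%), of a long non-coding RNA at 19.2% (18% to 20.5%) and of a pseudogene at 9.76% (8.84% to 10.8%), against 82.4% (81.4% to 83.4%), 11% (10.2% to 11.9%) and 3.07% (2.64% to 3.56%) of members with RNF12 at the TSS. The summits of the 2 classes were similar in strength, with median fold enrichments of 4.42 and 4.19.

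The REX1/YY1 core ATGGCNGC, searched on both strands within 50 bp of the summit, occurred at 631 of 9123 members (6.92%, 6.41% to 7.46%). The share was 10.9% with all lists held to a −log10 q of at least 5 and 17.5% with every list held to its 20000 strongest peaks. It was 3.84% within 20 bp of the summit, 1.83% for AAGATGGC and 15.6% for ATGGCNNC. Windows of the same 101 bases centred 300 bp to either side of the same summits held it in 1.55%, 4.48 times less often, and 3.77% of 101-base windows centred on all annotated TSSs held it. Among promoter peaks in all 3 lists the share was 10.1% (9.65% to 10.5%), and among REX1-only distal peaks 9.53% (9.24% to 9.82%). Promoter peaks shared with RNF12 WT alone held it in 6.92% (6.02% to 7.94%) and those shared with RNF12 H569A,C572A alone in 5.51% (4.81% to 6.3%). The string was more frequent at members without RNF12 at the TSS (8.44%, 7.58% to 9.39%) than at those with it (5.9%, 5.31% to 6.56%).

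The share with the core rose with the strength of the peak. Among members it was 3.62% (2.59% to 5.04%) in the lowest decile of fold enrichment and 18.5% (16.1% to 21.2%) in the highest. Within deciles of −log10 q that were set over all REX1 promoter peaks, members had the higher share in 8 of 10 deciles, with intervals apart from those of the shared peaks in 3 of them. In decile 8 it was 13.5% (10.9% to 16.6%) in members and 8.27% (7.22% to 9.44%) in shared peaks, and in the highest decile the order was turned, with 25% (20.6% to 30%) and 34.2% (32.5% to 36%). The part of strength in the overall difference was not tested. Inside CpG-island-like sequence the core was at 26 of 945 members (2.75%, 1.88% to 4%) and 1653 of 15709 shared peaks (10.5%, 10.1% to 11%). Outside CpG-island-like sequence the shares of members and shared peaks were 7.4% (6.85% to 7.99%) and 7.94% (7.06% to 8.91%), with overlapping intervals.

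**Figure D3:**
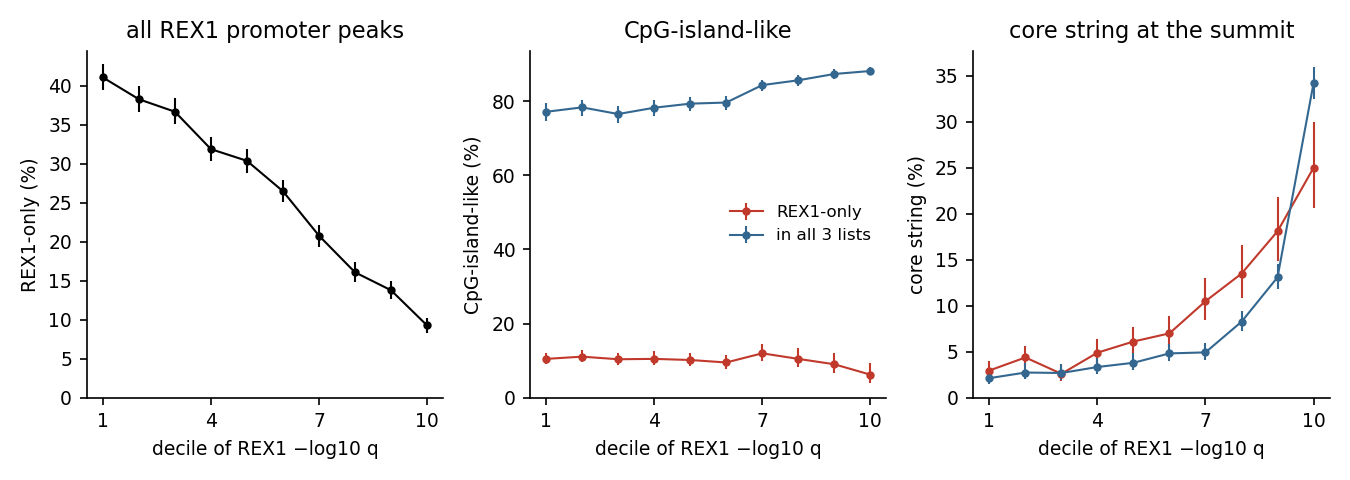
REX1 promoter peaks by decile of REX1 −log10 q (x axis, 1 lowest to 10 highest), with the percentage that are REX1-only (left), the percentage that are CpG-island-like (middle) and the percentage with ATGGCNGC within 50 bp of the summit (right) for members and for promoter peaks in all 3 lists; bars are 95% Wilson intervals. The REX1-only share falls from 41.1% to 9.29%, the gap in CpG content persists in each decile, and the core share rises in both sets.

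Members and promoter peaks in all 3 lists differed in the form of the core. Of 682 strings found at members, 387 read ATGGCTGC (56.7%, 53% to 60.4%), 120 ATGGCAGC (17.6%, 14.9% to 20.6%), 91 ATGGCCGC (13.3%, 11% to 16.1%) and 84 ATGGCGGC (12.3%, 10.1% to 15%). Of 2009 strings at promoter peaks in all 3 lists, 972 read ATGGCGGC (48.4%, 46.2% to 50.6%) and 496 ATGGCTGC (24.7%, 22.9% to 26.6%). ATGGCTGC, which holds no CG, was found at 4.14% (3.75% to 4.57%) of members, 0.586% of their flanking windows and 1.06% of all TSS windows. For ATGGCGGC the same values were 0.91% (0.735% to 1.13%), 0.28% and 1.61%, so that it stood above the flanks of the members but below the level of all TSSs. The REX1-only distal peaks had ATGGCTGC at 6.12% (5.88% to 6.36%) and ATGGCGGC at 0.79% (0.707% to 0.883%), and promoter peaks shared with RNF12 WT alone had 3.01% (2.43% to 3.73%) and 1.67% (1.25% to 2.23%), so the excess of ATGGCTGC was not limited to members. Base composition moves with these counts, and its part in the choice of word was not tested.

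The core read as often with transcription as against it at members. Of the 682 strings 341 read in the direction of transcription from the nearest TSS (50%, 46.3% to 53.7%), compared with 58.4% (56.2% to 60.5%) at promoter peaks in all 3 lists and 57.9% (56.5% to 59.2%) in windows on all TSSs. The strings at members lay 11.3% (9.13% to 13.9%) of the time from 0 to 100 bp downstream of the TSS, against 46% (43.9% to 48.2%) for shared peaks. In that interval 57.1% (46% to 67.6%) of the member strings and 66.5% (63.4% to 69.5%) of the shared strings read in the direction of transcription. From 101 to 300 bp downstream the values were 52.5% (41.7% to 63.1%) and 49% (43.3% to 54.7%). Beyond 300 bp downstream they were 46.5% (40.1% to 53%) and 50.9% (44.4% to 57.4%). More than 100 bp upstream they were 52.6% (46.4% to 58.7%) and 50.4% (44.2% to 56.7%). The part of position in the overall difference was not tested. The ATG of the string was an annotated start codon in 15 of 682 cases at members (2.2%, 1.34% to 3.6%) and in 491 of 2009 cases at shared peaks (24.4%, 22.6% to 26.4%). At promoter peaks shared with RNF12 WT alone 47% (40.2% to 53.9%) of the strings read with transcription and 6% (3.47% to 10.2%) had a start codon at their ATG, and at those shared with RNF12 H569A,C572A alone the values were 54.9% (48% to 61.6%) and 14.7% (10.5% to 20.2%).

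**Figure D4:**
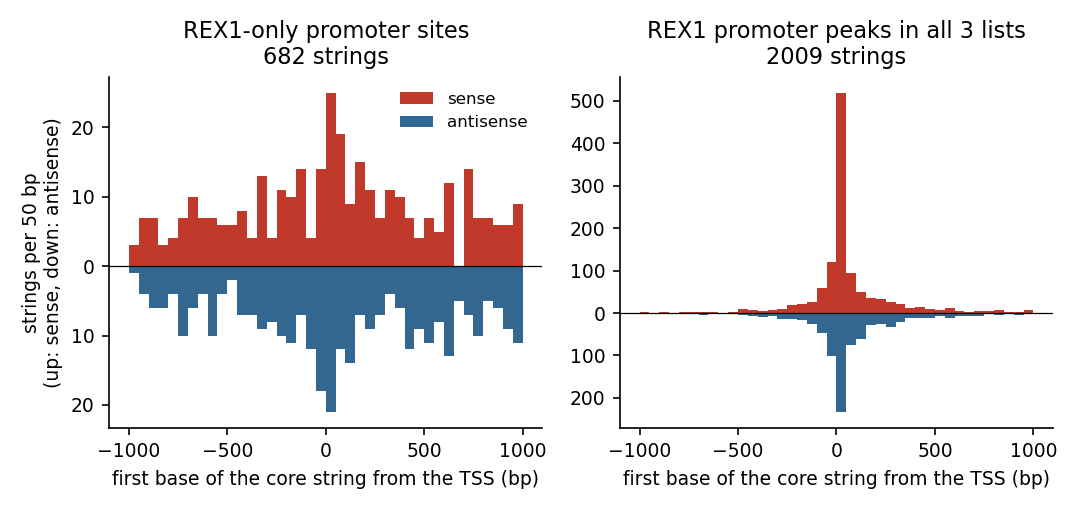
Number of ATGGCNGC strings per 50 bp (y axis; upward bars read in the direction of transcription, downward bars against it) by the position of their A relative to the nearest TSS (x axis, bp), for 682 strings at REX1-only promoter sites and 2009 strings at promoter peaks in all 3 lists. Scales of the y axes differ; strings more than 1000 bp from the TSS are not drawn. The shared strings peak just downstream of the TSS, and the member strings are spread out, with a small rise there.

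Strings of several other promoter factors were rarer at members than at shared promoter peaks. The SP/KLF string GGGCGGGG was found at 1.38% (1.16% to 1.64%) of members, 2.52% of their flanks, 5.42% (5.11% to 5.75%) of promoter peaks in all 3 lists and 5.54% of all TSS windows. The ETS string CCGGAAGT occurred at 0.373% (0.267% to 0.52%) of members and 1.7% (1.53% to 1.9%) of shared peaks, with 1.85% of all TSS windows. The string of NRF1, an activator of genes for mitochondria, occurred at 0.175% (0.108% to 0.285%) and 3.22% (2.98% to 3.48%), with 1.75% of TSS windows. In the same order these strings were at 1.06%, 0.202% and 0.0997% of REX1-only distal peaks. Promoter peaks shared with RNF12 WT alone had 2.42%, 0.633% and 0.856%, and those shared with RNF12 H569A,C572A alone 3.67%, 0.667% and 0.612%. The low shares were thus not limited to members. These strings all hold CG, and the part of base composition was not tested. The YY1 string AAGATGGC, which overlaps the core, was at 1.83% (1.58% to 2.13%) of members, 0.669% of flanks, 3.64% (3.39% to 3.92%) of shared peaks and 1.94% of TSS windows.

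Of the other strings some were more frequent at members than at shared peaks and some less. CCAAT, bound by NFY, was at 9.84% (9.25% to 10.5%) against 6.07% (5.74% to 6.41%), but this was below the 11.6% in the flanks of the members and the 12.3% of all TSS windows. The CTCF core was at 0.373% (0.267% to 0.52%) of members, 0.148% of their flanks, 0.137% (0.0933% to 0.2%) of shared peaks and 0.0773% of TSS windows. TATAAA was at 1.05% (0.863% to 1.28%) of members and 0.473% (0.385% to 0.581%) of shared peaks, against 3.77% of the flanks and 4.26% of TSS windows. The octamer ATGCAAAT was at 0.307% (0.212% to 0.443%) of members and 0.0999% (0.064% to 0.156%) of shared peaks, with 0.455% of flanks and 0.399% of TSS windows. The SOX string CATTGTT was at 1.17% (0.972% to 1.42%) of members and 0.536% (0.442% to 0.65%) of shared peaks, with 1.1% of flanks and 1.12% of TSS windows. Of these 5 strings, the CTCF core alone had a member interval that lay above the flanks, on 34 sites. The CTCF core was also at 0.614% (0.541% to 0.696%) of REX1-only distal peaks, against 0.125% of their flanks. It was at 0.409% (0.229% to 0.732%) of promoter peaks shared with RNF12 WT alone and 0.139% (0.0594% to 0.325%) of those shared with RNF12 H569A,C572A alone. It was thus not particular to members.

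The remaining strings had lower shares at members than at shared peaks, with intervals apart for a CAG repeat and the CREB element. The repeat GCAGCAGC was at 2.32% (2.03% to 2.65%) of members and 4.67% (4.38% to 4.98%) of shared peaks, with 1.38% of flanks and 2.33% of TSS windows. The E-box CACGTG was at 2.81% (2.49% to 3.17%) of members and 3.34% (3.1% to 3.61%) of shared peaks, with 1.91% of flanks and 2.25% of TSS windows. The TGACGTCA element of CREB was at 0.142% (0.0833% to 0.244%) and 0.599% (0.499% to 0.719%), with 0.159% of flanks and 0.662% of TSS windows. The ZFP143 core was at 0.121% (0.0673% to 0.216%) and 0.258% (0.195% to 0.34%), with 0.11% of flanks and 0.201% of TSS windows. The string taken from the RNF12 logo, with 1 mismatch allowed, was at 0.208% (0.133% to 0.325%) of members and 0.321% (0.25% to 0.412%) of shared peaks, with 0.153% of flanks and 0.137% of TSS windows.

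An open ranking of all 8-base words by the difference between summit and flanks put ATGGCTGC first, in 378 members (4.14%) against 0.586% of flanks. AATGGCTG followed, with 3.41% against 0.477%, and 9 of the first 10 words held ATGGCT or its complement on the other strand. Against promoter peaks in all 3 lists the words highest in members were AATGGCTG (3.41% against 1.15%), the repeat CACACACA (2.77% against 1.01%), ACAGCCAT (2.04% against 0.605%) and CAAGGTCA (1.48% against 0.378%), the last of which resembles the half-site of orphan nuclear receptors such as ESRRB. The words lowest in members all held CG, led by GCCGCCGC, with 0.351% against 7.87%. At least 1 soft-masked base, the mark of repeats in the reference, lay within 50 bp of the summit at 30.7% (29.7% to 31.6%) of members and 17.4% (16.8% to 17.9%) of shared peaks. The share was 42.5% (42% to 43%) for REX1-only distal peaks. It was 23.5% for promoter peaks shared with RNF12 WT alone and 21.7% for those shared with RNF12 H569A,C572A alone.

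Counted over genes, 5480 of 21755 protein-coding genes (25.2%, 24.6% to 25.8%) had a REX1-only site within 1 kb of a TSS. The share was 7.97% when an RNF12 peak within 1 kb counted as shared, 13.5% with every list held to its 20000 strongest peaks, 16.4% with a −log10 q of at least 5 and 46.9% when an overlap had to cover 50% of both peaks, and the gene lists were counted under the rule itself alone. Of the 5480 genes, 4966 (90.6%, 89.8% to 91.4%) also had an RNF12 summit within 1 kb of one of their TSSs, and 4381 (79.9%, 78.9% to 81%) had a REX1 peak shared with RNF12. Among all protein-coding genes these shares were 72.5% (71.9% to 73.1%) and 62.4% (61.8% to 63.1%), and among the 14678 genes with any REX1 promoter peak they were 96.4% (96.1% to 96.7%) and 92.5% (92.1% to 92.9%). A shared REX1 peak brings an RNF12 peak with it and a REX1-only site does not, so the last comparison depends on the rule. A total of 514 protein-coding genes (2.36%, 2.17% to 2.57%) had a REX1-only site and no RNF12 summit. Genes with a site had a median of 5 distinct TSSs, against 3 for all protein-coding genes and 2 for the 514 genes, and a gene with more TSSs has more chances to hold a site.

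Genes of naive pluripotency often had a REX1-only site, 15 of 30 (50%) against the 25.2% of all protein-coding genes, and 4 of the 30 (13.3%, against 2.36%) had no RNF12 summit at any TSS. These 4 were Nanog, Gdf3, Dppa2 and Tcl1. Of the 27 listed genes with any REX1 promoter peak 15 had a site, against 5480 of the 14678 protein-coding genes with such a peak. At Nanog, a homeobox gene of the pluripotency network, the site had a fold enrichment of 5.89 and lay 51 bp upstream of the TSS, with the nearest RNF12 peak 987 bp away. Gdf3, a ligand of the TGF-beta family, had a site of 6.88 at 617 bp downstream of a TSS, with the core string. Dppa2, a chromatin factor of pluripotent cells, had 7.51 at 368 bp upstream, with the nearest RNF12 peak 10701 bp away.

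The other 11 genes of that list with a site carried REX1-only sites beside RNF12 peaks elsewhere at their TSSs. Pou5f1, which encodes OCT4, had 3 sites, the strongest with 5.41 at 285 bp downstream of a TSS. Tet1, a dioxygenase of 5-methylcytosine, had 4 sites, the strongest with 12 at 50 bp downstream of a TSS and 20541 bp from an RNF12 peak. Klf4 had 1 site of 4.59, 43 bp from an RNF12 peak, and Esrrb had 2, the stronger with 2.87. The strongest site of each gene on this list ranged from a fold enrichment of 2.87 at Esrrb to 12.8 at Fbxo15. Tet1 and Dnmt3l lie on chromosome 10 and Esrrb and Tcl1 on chromosome 12, where the RNF12 WT list stood apart, and without these chromosomes 11 of 26 genes of the list (42.3%) had a site, against 24.7% of protein-coding genes, and 3 had no RNF12 summit. The lists were chosen with earlier results known, and no test is given for them.

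Other lists lay on both sides of the background, which is that of protein-coding genes, while 8 of the 49 imprinted genes and 4 of the 22 genes around X inactivation are not protein-coding. Ribosomal protein genes had a site in 32 of 83 cases (38.6%), imprinted genes in 18 of 49 (36.7%), Polycomb genes in 12 of 36 (33.3%), respiratory chain genes in 32 of 102 (31.4%), Zfp genes in 123 of 394 (31.2%) and Hox genes in 11 of 39 (28.2%). Germline genes (25.6%), translation factors (25.4%), mitochondrial ribosomal proteins (21.8%), clustered protocadherins (21.4%) and the proteasome (20.4%) lay around the 25.2% of all protein-coding genes. Histone genes (13.4%), the spliceosome (11.5%) and genes around X inactivation (2 of 22, 9.09%) were lower, and olfactory receptor genes had a site in 21 of 1134 cases (1.85%). Any REX1 promoter peak was found at 26 of the 1134 olfactory receptor genes, compared with 14678 of 21755 protein-coding genes. A site needs such a peak, and 5480 of the 14678 protein-coding genes with one had a site. On that base a site was at 32 of 79 ribosomal protein, 18 of 44 imprinted and 12 of 35 Polycomb genes. The counts were 32 of 96 for the respiratory chain, 123 of 345 for Zfp genes and 11 of 37 for Hox genes. They were 9 of 64 for histones, 7 of 58 for the spliceosome, 2 of 21 for X inactivation and 21 of 26 for olfactory receptors.

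A REX1-only site without any RNF12 summit was found at 2.36% of all protein-coding genes. Clustered protocadherins had 8 of 56 (14.3%) and Zfp genes 24 of 394 (6.09%). Hox genes, Polycomb genes, germline genes, translation factors, the spliceosome and the X inactivation list had none. The lists with none hold 22 to 67 genes, in which 2.36% would be few genes. Having none is thus no clear departure from the background. The 8 protocadherins are neighbours in the genome. Among the 24 Zfp genes, Zfp534, Zfp600, Zfp933, Zfp979, Zfp980, Zfp981, Zfp985, Zfp987, Zfp988, Zfp989 and Zfp991 lie near one another on chromosome 4. Each gene was counted separately, and the part of such clustering in these shares was not tested. The protocadherin with the highest value was Pcdhga7 with 8.89, and the Zfp gene was Zfp947 with 7.11, 11 bp upstream of its TSS and 20622 bp from the nearest RNF12 peak. Among ribosomal proteins the 2 genes were Rpl3l, with 5.43, and the X-linked Rpl10, with 4.45 at 3 bp downstream of the TSS. Psmd10, a chaperone of proteasome assembly, had 11.1, Hist1h1b 9.02 and Mrpl24 5.51, while Ndufa4l2, on chromosome 10, had 4.1. An RNF12 WT peak lay 294 bp from the Hist1h1b site and 745 bp from the Ndufa4l2 site. Their place here thus rests on the 1 kb limit from summit to TSS. The imprinted non-coding RNAs Mirg and Rian on chromosome 12 had 4.89 and 2.77. Of 21 olfactory receptor genes with a site 16 had no RNF12 summit, and the top 2, Olfr533 (6.25) and Olfr536 (6.2), carried the same 30 bases around the core on opposite strands, shown here because the copies are identical.
Olfr533 and Olfr536: cccatggggccATGGCTGCcttgggttgca

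At and near the X inactivation centre, members were few, with fold enrichments below the median of 4.27 of all members. The −log10 q of the Cdx4 site, 5.27, was above the median of 4.63. Cdx4, a caudal-type homeobox gene near the centre, had a site of 4.14 at 26 bp downstream of its TSS, with RNF12 WT 436 bp and RNF12 H569A,C572A 464 bp away. Ftx, a non-coding RNA gene of the centre, had 2, one of 2.49 at 522 bp downstream of a TSS and one of 3.68 at 332 bp downstream of another. Both stood at TSSs that also had RNF12 summits and a shared REX1 peak. None of the 3 sites held the core within 50 bp of the summit. No member had its nearest TSS at Xist, Tsix, Jpx, Rlim, Zfp42, Yy1 or Yy2.
Cdx4 (chrX:103321409-103321438): gaaggatggagtagtccgagccgcgcagag
Ftx (chrX:103616298-103616327): cgtaagataacgcgcatataacacatacac
Ftx (chrX:103622022-103622051): agtctgcggagagccaagctcggccaggat

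Some genes collected several members. Of the protein-coding genes nearest to a member 3756 had 1 site, 883 had 2 and 264 had 3. The highest numbers were 11 at Adcy3, an adenylate cyclase gene, 10 at the small GTPase gene Mras, 8 at Ggt1, 7 at the DNA methyltransferase gene Dnmt3a and 6 each at Atxn7l1 and the septin gene Sept9. The Adcy3 sites had fold enrichments of 2.94 to 7.58 and those of Dnmt3a 3.46 to 7.94. Of these 6 genes Adcy3, Dnmt3a and Atxn7l1 lie on chromosome 12 and Ggt1 on chromosome 10.

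Chromosomes 10 and 12 stood apart in 1 RNF12 list. RNF12 WT had 3070 and 2289 peaks there, while RNF12 H569A,C572A had 4672 and 4303 and REX1 4554 and 5892. On chromosome X it was RNF12 H569A,C572A that differed, with 5241 peaks against 3293 for RNF12 WT and 3186 for REX1. The REX1-only share on chromosome X was 24.1% (21.7% to 26.7%). REX1 promoter peaks overlapped RNF12 WT in 51.1% of cases on chromosome 10 and 43.5% on chromosome 12, against 60.6% to 68.7% elsewhere, and RNF12 H569A,C572A in 65.7% and 65.2%. The REX1-only share was 30.2% (28% to 32.4%) on chromosome 10 and 32.4% (30.1% to 34.8%) on chromosome 12, the highest of all, while the other chromosomes ranged from 23.2% on chromosome 19 to 29.6% on chromosome 17. Without both, 8108 members remained and the share was 26% (25.5% to 26.5%). Rtn1 and Atxn7l1, among the strongest members, lie on chromosome 12, and neither had an RNF12 H569A,C572A summit within 1 kb of its nearest TSS, though the Rtn1 site was 511 bp from such a peak.

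**Figure D5:**
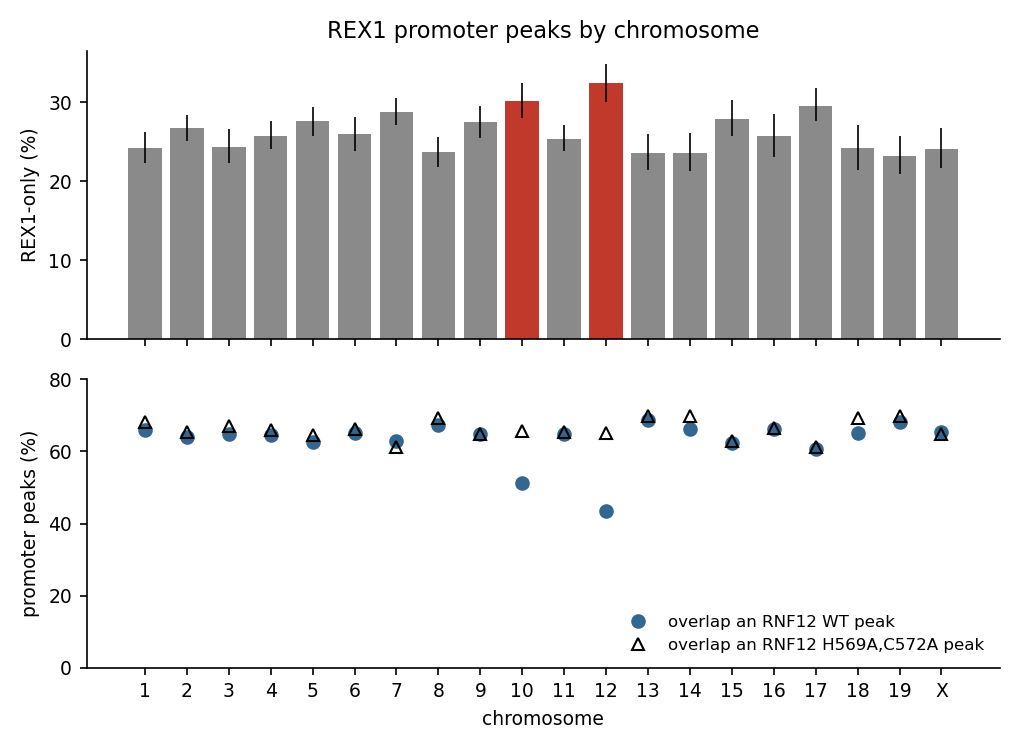
Percentage of REX1 promoter peaks that are REX1-only on each chromosome with 95% Wilson intervals (upper panel, chromosomes 10 and 12 in red) and percentage that overlap an RNF12 WT or an RNF12 H569A,C572A peak (lower panel). RNF12 WT drops to 51.1% and 43.5% on chromosomes 10 and 12, and RNF12 H569A,C572A does not.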

How the data were processed

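The members, gene lists and strings were chosen with earlier results of these data known. The authors trimmed reads with Trim Galore 0.6.7, aligned them with Bowtie2 2.5.0 to an mm10 genome masked at strain differences, split and re-merged alleles (SNPsplit, SAMtools 1.10), and called narrow peaks with MACS2 2.2.7.1. Per the labels and methods, each deposited list comes from 1 library. The deposited values are fold enrichment over control (a ratio), −log10 p and −log10 q from the authors' caller, and a score, which was not used. Each list starts at −log10 q of 1.31. Fold enrichments were compared only within the REX1 list.

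Positions were compared with transcripts of GENCODE M21 and sequence of GRCm38, the same build. Peaks were shared when they overlapped by 1 bp. The distance to a TSS was taken from the summit. An RNF12 summit within 1 kb of the TSS nearest to the member counted as RNF12 at the same TSS. A gene counted when a summit lay within 1 kb of any of its TSSs. Strings were searched on both strands in 101 bases. Words of 8 bases found in at least 100 peaks were ranked by the 2-proportion z, as a ranking only. Sites named in the text are the 10 strongest at protein-coding genes (chromosome 18 left out), those at the X inactivation genes listed, up to 3 genes per list with a site and no RNF12 summit, and the 5 genes with most sites, with a tie for the last place kept. Sequences come from the RefSeq copy of GRCm38. Sites named outside that rule, namely the pluripotency genes with RNF12 summits, were chosen after their values were seen. Overlap, distance and string steps were tested on simulated data. Versions were Python 3.11.15, numpy 2.4.6, pandas 2.3.3, scipy 1.17.1 and matplotlib 3.10.9. Alternatives to the thresholds, overlap, annotation, chromosomes and strings are in the closing section.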

Additional observations from a re-analysis of the deposited data

How the results depend on the processing

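The values below are for alternatives that moved a result out of its interval, or a count by more than 1.5 times. In each of them peaks, sites or annotation were removed or redefined, and any other cause was not tested. The number of members (9123) became 5164 and 3478 when all lists were held to −log10 q of at least 5 or to their 20000 strongest peaks, 19464 when an overlap had to cover 50% of both peaks, 3438 when an RNF12 peak within 1 kb counted as shared, and 5773 within 500 bp of a TSS. In the same order, the REX1-only share of promoter peaks (26.5%) was 24.7%, 38.2%, 56.5%, 9.99% and 21%, and the share of protein-coding genes with a site (25.2%) was 16.4%, 13.5%, 46.9%, 7.97% and 17.1%. An RNF12 peak within 100 bp gave 22.3% and 20.8%, and TSSs of basic transcripts 22.2% and 18.7%. TSSs of protein-coding genes gave a REX1-only share of 23.4%, and leaving out chromosomes 10 and 12 gave 26%. The share of genes was 24.5% at −log10 q of at least 2.

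The share with the core string (6.92%) was 10.9% and 17.5% under both stricter thresholds, 8.52% with RNF12 peaks within 1 kb as shared, 6.39% within 500 bp of a TSS, 6.37% with basic transcripts, 1.83% for AAGATGGC, 15.6% for ATGGCNNC and 3.84% within 20 bp of the summit. The share reading with transcription (50%) moved for AAGATGGC alone, to 54.4%. RNF12 at the same TSS (60%) was 51.4% and 26.9% under the stricter thresholds, 44.9% within 500 bp, 67.2% and 65.2% with protein-coding and basic transcripts, and 61.3% without chromosomes 10 and 12. The CpG-island-like share (10.4%), whose alternatives were chosen after the data were seen, was 13.8% and 46.9% under the stricter thresholds, 2.73% with RNF12 peaks within 1 kb as shared and 13.2% with basic transcripts, and it was below that of promoter peaks in all 3 lists in each case. No paired analysis was possible because each list comes from 1 library. For the same reason no sample could be set against others of its group. With unknown depth, the absence of an RNF12 peak means no call in that list, not an absence of RNF12.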
